A study of Homo sapiens with 120 samples.

Results

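TK6 cells, a human B lymphoblastoid line with working p53, were exposed to formaldehyde (FA) or to methyl methanesulfonate (MMS), and the question here is how the response to 200 µM FA differed from the response to 160 µM MMS at 24 h. FA is a small reactive aldehyde that links proteins to DNA and adds hydroxymethyl groups to bases and amines. MMS is a methylating agent that marks bases one at a time. The comparison used 12 of the 120 arrays of the series, with 3 arrays in each of 4 groups: cells given 200 µM FA, the untreated cells of the FA experiments, cells given 160 µM MMS, and the untreated cells of the MMS experiments, all harvested at 24 h. Each chemical had its own untreated arrays, and the labels number the arrays of a group as experiments 1 to 3. They do not say whether these were separate cultures, so the p-values measure the spread between these arrays, which may be partly technical. The measure was the difference of changes, that is, the log2 change with FA minus the log2 change with MMS, for each of 14017 genes bright enough to test of 19775 genes on the array. A positive difference means that the change was higher with FA, which can be a larger rise or a smaller fall.

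DNA damage is known to act on gene expression in several ways. Broken or blocked DNA activates p53, which switches on genes of cell cycle arrest, repair and death. The kinases that sense breaks can also release NF-κB, the factor behind many cytokine genes. Lesions in the transcribed strand stall RNA polymerase, which matters more the longer the gene. Proteins can be hit too: misfolding calls on the heat shock factors, oxidised or alkylated thiols call on NRF2, and released zinc calls on the metal-responsive factor of the metallothionein genes.

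The arrays carried the signature of the labelled cell type. Of 9 B cell markers, 8 were on the array and all 8 exceeded the limit of 6.19 (the median probe set signal, log2) below which a reading was taken as dim, on all 12 arrays, with a median of 11.7. Markers of T and NK cells, of monocytes and granulocytes and of epithelium and fibroblasts had medians of 6.50, 5.40 and 6.24. In that order, 6 of 14, 2 of 13 and 5 of 12 markers on the array also exceeded the limit on all 12 arrays. Among them KRT8 (8.33 to 8.62) and COL1A1 (8.17 to 8.65) read as high as the B cell marker CD79B (8.16 to 8.94). Markers of red blood cells had a median of 6.92, and their summed signal moved alike in both sets, from between 10.6 and 10.7 to between 9.60 and 9.67 with FA and from between 10.5 and 10.6 to between 9.68 and 9.80 with MMS. The 3′ minus 5′ signal of the ACTB control probe sets, a sign of RNA quality, differed between the sets before treatment, at 0.48 ± 0.02 (SD, n = 3) in the untreated FA arrays and 0.94 ± 0.08 in the untreated MMS arrays. It was 0.77 ± 0.07 with FA and 1.28 ± 0.01 with MMS, a shift of 0.29 and of 0.34. The untreated cells of the sets also differed from each other: 4164 genes (29.7%) passed the test (limma, Benjamini-Hochberg adjusted p under 0.05, as for all calls below), 2204 higher in the FA set (15.7%) and 1960 lower (14.0%). The difference of changes subtracts these starting levels, but a gene that starts lower has more room to rise. Of the 175 genes named by rule outside the p53 list, 20 had all 3 arrays of at least 1 group under the limit of 6.19, where a reading may be background, so the sizes of their changes are uncertain. Among those described here, CXCL8, CXCL11, GPNMB, SLAMF7 and TDRD9 were dim before FA. SPARCL1, CYP4F3 and FUCA1 were dim before FA and also before MMS. H2BC3 and GALR2 were dim before FA and throughout the MMS set, and MGMT was dim throughout the MMS set. CEP128, MYO1D and RAD51B were dim after FA, DDX60 before and after FA, and RNASE6 after FA and before MMS.

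The pair of doses was chosen by the measured 24 h changes of the p53 targets, whose median was similar at both, so these genes are described with no test. Over the 41 p53 targets bright enough to measure, of 46 on the list, the median change was 1.42 with FA and 1.32 with MMS. The neighbouring doses were further apart: the median was 0.37 at 100 µM FA, 0.70 at 80 µM MMS and 1.64 at 320 µM MMS. CDKN1A, the cyclin-dependent kinase inhibitor p21, read 10.78, 10.88 and 10.80 on the untreated FA arrays and 12.90, 12.63 and 12.71 with FA, against 10.61, 10.61 and 10.65 before and 12.50, 12.50 and 12.46 with MMS. Its change was 1.93 and 1.86. MDM2, the ligase that degrades p53, changed by 1.97 and 2.01, and SESN1 by 1.93 and 1.93. Matched medians did not mean matched genes. The stress cytokine GDF15 changed by 4.07 with FA and 4.63 with MMS, the quinone reductase gene TP53I3 by 3.39 and 4.28, and the repair genes XPC and DDB2 by 0.94 and 1.54 with FA and 1.61 and 2.04 with MMS. On the other side, SESN2 changed by 2.60 and 1.84, TNFSF9 by 0.85 and 0.23, and the death receptor genes TNFRSF10A and TNFRSF10B by 0.97 and 1.35 with FA and 0.55 and 0.98 with MMS.

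Over all genes tested, with the p53 targets included in the counts, the responses shared a broad base and then parted. FA changed 6689 genes (47.7%) and MMS 6632 (47.3%). Both chemicals moved 4244 genes (30.3%) in the same direction, 2336 up and 1908 down. Across all genes, the changes correlated with a Pearson r of 0.74 and a Spearman rho of 0.64, where genes are not independent replicates and each set has its own controls. The difference of changes was called for 3558 genes (25.4%). It was higher with FA for 1548 genes (11.0%) and lower for 2010 (14.3%), and the differences were mostly modest: 91 genes (0.649%) were at least 2-fold higher and 77 (0.549%) at least 2-fold lower. For 1229 genes (8.77%) both chemicals moved the gene the same way but by different amounts, 157 genes (1.12%) rose with FA and fell with MMS, and 213 genes (1.52%) did the reverse. The median standard error of a difference was 0.11, so a gene's 95% interval typically spanned 0.23 on either side.

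**Figure D1:**
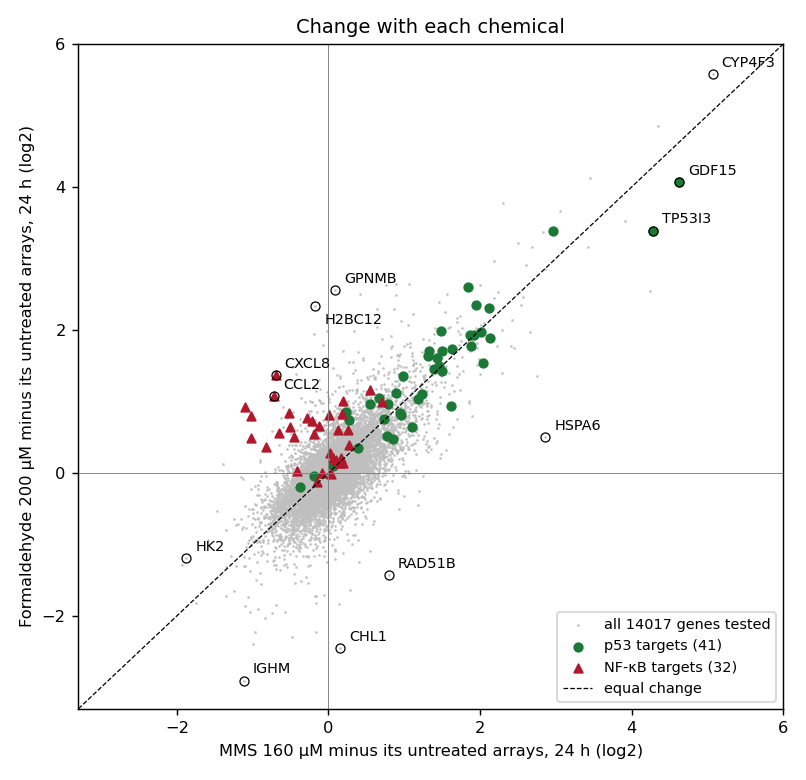
Change with 200 µM FA (vertical) against change with 160 µM MMS (horizontal), both log2 against the set's own untreated arrays at 24 h; each point is one gene, and the dashed line marks equal change. The p53 targets (green) follow the line, most NF-κB targets (red) lie above it, and CHL1, RAD51B and IGHM lie far below it.

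Inflammatory genes mostly had the higher change with FA. NF-κB is held in the cytoplasm by inhibitors of the NFKBIA type and, once freed, drives chemokines, cytokines, survival genes and its own inhibitors. Of 32 measured NF-κB targets, 21 had a higher change with FA and 0 a lower one, against 11.0% and 14.3% of all genes tested. With FA 26 rose (23.8% of all genes did) and 0 fell (23.9%), whereas with MMS 10 rose (25.7%) and 15 fell (21.6%). The list's median change was 0.58 with FA and -0.11 with MMS, and its median difference was 0.68, against -0.0011 over all genes.

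The start regions of the 3 NF-κB targets with the largest differences for which a sequence was at hand are shown. This factor can act through κB sites near the start. Each line gives the 250 bases before the transcription start, 5′ to 3′ on the gene's strand, from RefSeq on GRCh38.p14, with matches to the 10-letter κB consensus (searched on both strands) in capitals. CXCL8 lies at chr4:73740319-73740568, IL6 at chr7:22726950-22727199 and CCL22 at chr16:57358533-57358782, all on the plus strand.
CXCL8: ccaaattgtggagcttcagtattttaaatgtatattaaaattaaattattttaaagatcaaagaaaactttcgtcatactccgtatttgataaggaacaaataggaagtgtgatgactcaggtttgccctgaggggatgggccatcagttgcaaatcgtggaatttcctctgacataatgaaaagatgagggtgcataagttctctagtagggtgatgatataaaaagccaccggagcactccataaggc
IL6: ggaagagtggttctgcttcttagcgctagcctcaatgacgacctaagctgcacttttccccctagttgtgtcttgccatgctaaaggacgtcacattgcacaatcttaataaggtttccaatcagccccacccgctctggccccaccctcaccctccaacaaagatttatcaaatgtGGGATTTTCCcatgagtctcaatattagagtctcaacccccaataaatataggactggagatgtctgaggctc
CCL22: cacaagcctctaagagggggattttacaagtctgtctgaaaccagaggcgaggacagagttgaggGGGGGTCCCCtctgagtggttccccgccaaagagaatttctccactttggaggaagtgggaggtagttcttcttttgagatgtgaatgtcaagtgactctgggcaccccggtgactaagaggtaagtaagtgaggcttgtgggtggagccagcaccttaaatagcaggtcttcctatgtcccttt
IL6 and CCL22 hold 1 match each and CXCL8 holds 0, which says only that these letters are not in this window. The consensus searched opens with GGG. The CXCL8 window holds tggaatttcc, which differs from the consensus only in its opening letter, so the count of 0 does not mean that a κB site is absent. Of the 24 tested list members with a sequence, 10 (41.7%) hold the consensus, as do 694 of 11160 tested genes with a sequence (6.22%); the list was drawn up from known targets of the factor, many of them known through such sites.

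CXCL8, the neutrophil chemokine interleukin 8, read 5.14, 5.04 and 5.29 on the untreated FA arrays and 6.70, 6.14 and 6.73 with FA. On the MMS side it read 7.10, 7.09 and 7.29 before and 6.55, 6.42 and 6.42 after. The FA arrays all lay above their controls and the MMS arrays all below theirs, a rise and a fall that each passed the test. All 3 untreated FA readings were dim (under 6.19), so no fold is given for the rise. The fitted difference was 2.06 ± 0.25 (SE, limma, adjusted p = 6.8e-08). The probe set used carries the array maker's mark for shared sequence. The gene's other probe set, with a mean signal of 6.05, gave a difference of 0.65 ± 0.26, so the size for CXCL8 is uncertain. IL6 behaved alike: 6.88, 6.67 and 6.81 before FA and 7.90, 7.39 and 7.84 after it, 8.55, 8.72 and 8.79 before MMS and 7.59, 7.62 and 7.55 after it. The difference for IL6 was 2.02 ± 0.19 (limma, adjusted p = 1.53e-10). In both genes the starting level was lower in the FA set, by 2.00 for CXCL8 and 1.90 for IL6, and the treated levels of the 2 chemicals overlapped.

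CCL22, a chemokine that draws regulatory T cells, did not have that offset (0.06 between the untreated sets). It read 8.56, 8.46 and 8.41 before FA and 9.12, 9.14 and 9.54 after it, 8.24, 8.54 and 8.49 before MMS and 7.28, 7.49 and 7.43 after it, so that the treated groups stood apart from each other and from their controls. The difference was 1.81 ± 0.16 (limma, adjusted p = 3.61e-11), or 3.51-fold. CCL2, the monocyte chemokine, rose by 1.08 with FA and fell by 0.71 with MMS, and CCL20 rose by 1.38 and fell by 0.43, with starting levels lower in the FA set by 0.90 and 0.83. CXCL11, an interferon-inducible chemokine, rose with both chemicals, by 2.70 and 0.70. The survival gene BCL2A1 went from 10.95, 11.09 and 11.06 to 11.58, 11.62 and 11.58 with FA and from 10.77, 10.82 and 10.81 to 10.23, 10.12 and 10.08 with MMS, a difference of 1.22 ± 0.11 (limma, adjusted p = 7.74e-11). IER3, an early response gene that NF-κB also drives, had a difference of 1.37. Over the whole list the starting level was higher in the FA set for 12 genes and lower for 9, and the part that starting level played in the difference was not tested.

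**Figure D2:**
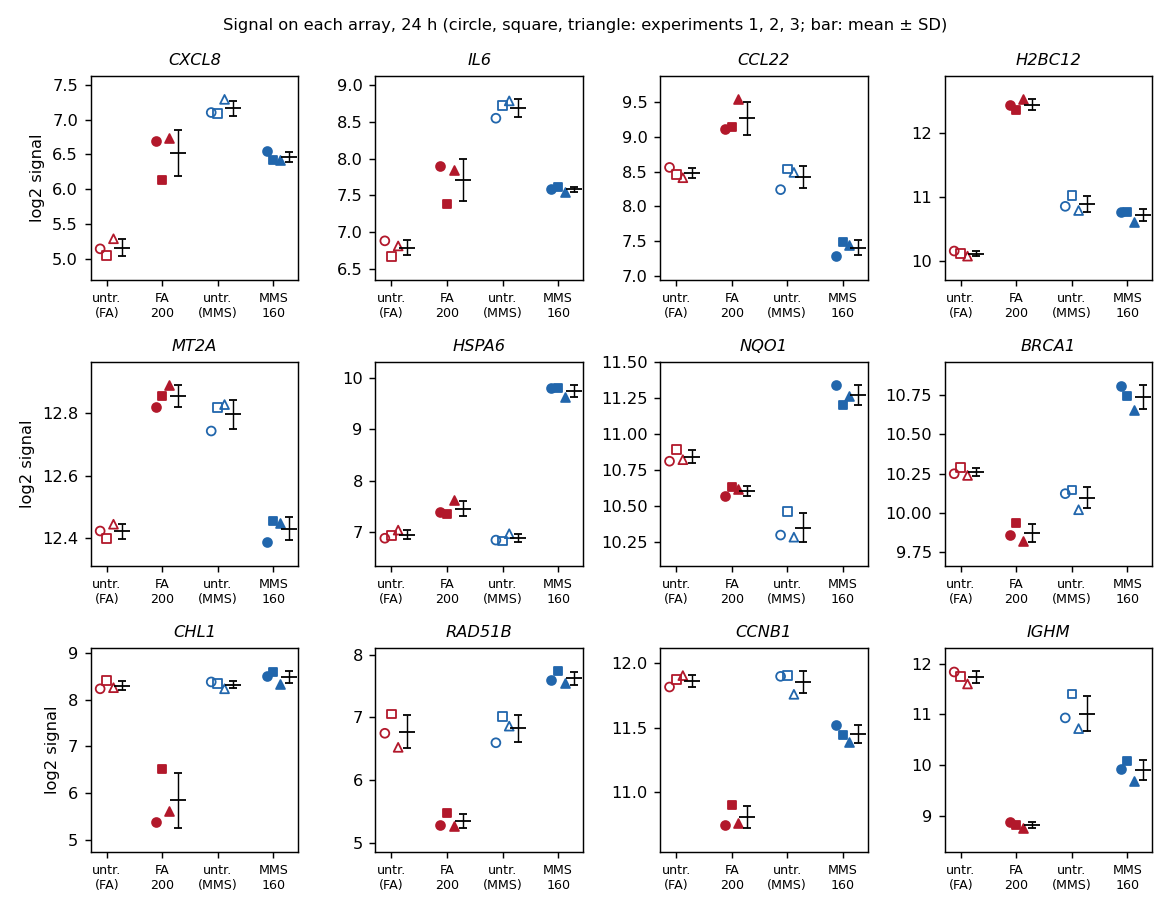
Signal (log2) of 12 genes on each of the 12 arrays; open symbols are untreated, filled symbols treated, red the FA set and blue the MMS set, symbol shapes give the experiment, and bars the mean ± SD of 3 arrays. CXCL8, IL6, CCL22 and MT2A move in opposite directions with the chemicals, H2BC12 rises with FA, and CHL1 drops with FA while its MMS arrays stay near 8.5.

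Genes of neighbouring functions mostly moved the same way. Over all genes tested, the shares were 11.0% with a higher change and 14.3% with a lower one. Of 25 apoptosis regulators, 9 had a higher change with FA and 1 a lower one (5 higher when the fit held only the arrays of the groups compared). Besides BCL2A1 they included CFLAR, the caspase-8 inhibitor (difference 0.73), CASP8 itself (0.52) and BCL2 (0.47). Over the bright probe sets the lowest difference was 0.29 for CFLAR (11 sets), 0.17 for CASP8 (2 sets) and 0.07 for BCL2 (3 sets). Of 25 immediate early genes, 12 had a higher change and 2 a lower one. JUN, an AP-1 subunit, went from 8.50, 8.59 and 8.39 to 9.95, 9.86 and 10.06 with FA and from 8.83, 8.88 and 8.93 to 9.51, 9.42 and 9.47 with MMS, a difference of 0.87 ± 0.09 (limma, adjusted p = 2.76e-09). The other bright probe set of JUN gave 0.33. MYC, the growth regulator, did not pass the test with FA (11.43, 11.61 and 11.43 before, 11.36, 11.44 and 11.39 after) and fell by 1.13 with MMS (11.24, 11.47 and 11.36 before, 10.21, 10.30 and 10.17 after). EGR1 went the other way, with a change of -0.15 with FA that did not pass the test and a rise of 0.65 with MMS. Of 22 antigen presentation genes, 8 had a higher change with FA and 0 a lower one, among them the peptide transporter TAP1 (1.64 with FA, 0.90 with MMS) and the class II activator CIITA (0.38 and -0.34).

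The largest single difference on the FA side was a histone gene. Replication-dependent histone messages normally lack a poly(A) tail, and the labels state a labelling kit but not how poly(A)-free RNA was treated, so signals for them may come from tailed forms. H2BC12, a histone H2B gene, read 10.15, 10.11 and 10.07 before FA and 12.44, 12.37 and 12.53 after it, a 5.04-fold rise. With MMS it read 10.85, 11.03 and 10.79 before and 10.76, 10.77 and 10.61 after, a change of -0.17 that did not pass the test. The difference was 2.51 ± 0.11 (limma, adjusted p = 4.54e-19). H2BC6 rose by 1.04 with FA and fell by 0.36 with MMS, and H2BC3 rose by 1.60 and 0.45. H2BC3 was dim on the untreated FA arrays and throughout the MMS set, so the sizes of both changes are uncertain. The linker histone gene H1-2 rose by 0.39 with FA and fell by 0.66 with MMS. In all, 10 of 25 measured histone genes had a higher change with FA and 3 a lower one (1 lower without MMS experiment 2), with a median difference of 0.11. The shares over all genes tested were 11.0% and 14.3%, so the lower count is near its share. Histone genes are close copies, so probe sets can read their neighbours, and 8 of the 25 probe sets carry the array maker's mark for shared sequence. H2BC12L, a near copy of H2BC12, had a difference of 2.13 and cannot be counted as independent of it.

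Metallothioneins are small cysteine-rich proteins that bind zinc and copper. On the metallothionein list, which also holds the zinc exporter SLC30A1 and the factor MTF1, 7 of 9 genes had a higher change with FA and 0 a lower one. The shares over all genes tested were 11.0% and 14.3%. With FA 7 rose and 0 fell (23.8% and 23.9% of all genes did), and with MMS 1 rose and 6 fell (25.7% and 21.6%). MT2A read 12.42, 12.40 and 12.44 before FA and 12.82, 12.86 and 12.89 after it, against 12.74, 12.82 and 12.83 before MMS and 12.38, 12.45 and 12.45 after it. The difference was 0.80 ± 0.06 (limma, adjusted p = 9.14e-13), with no overlap between treated and untreated arrays in either set. MT1X differed by 0.73 and MT1E by 0.80 in the brightest probe set. The other bright set gave 0.32 for MT1X, 0.13 for MT1E and 0.22 for SLC30A1, whose brightest set gave 0.77. SLC30A1 was the member that rose with both chemicals, from 9.99, 10.07 and 10.05 to 11.92, 11.65 and 11.97 with FA and from 10.40, 10.40 and 10.32 to 11.41, 11.47 and 11.36 with MMS. Of the 9 probe sets, 6 carry the mark for shared sequence, and 8 of the 9 genes started lower in the FA set, with a median offset of -0.32.

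The MT2A start region is shown because metal response elements lie there. The window is chr16:56608334-56608583 (GRCh38.p14, plus strand, RefSeq), and capitals mark TGCACNC or TGCGCNC on either strand, some of which can overlap.
MT2A: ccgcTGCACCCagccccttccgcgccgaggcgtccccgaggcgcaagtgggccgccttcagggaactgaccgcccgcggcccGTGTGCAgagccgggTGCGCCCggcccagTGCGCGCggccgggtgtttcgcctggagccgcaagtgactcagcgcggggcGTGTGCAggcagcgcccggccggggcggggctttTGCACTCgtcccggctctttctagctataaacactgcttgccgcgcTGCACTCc
It holds 7 matches. Of 5 list members with a sequence, 4 (80%) hold the element, but so do 31.8% of all tested genes with a sequence, because 7 letters with an open base occur often.

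HSPA6, an inducible HSP70 chaperone that is nearly silent in unstressed cells, rose with both chemicals and far more with MMS. It read 6.88, 6.94 and 7.04 before FA and 7.39, 7.35 and 7.63 after it, a 1.42-fold rise. With MMS it went from 6.85, 6.83 and 6.97 to 9.81, 9.80 and 9.62, a 7.27-fold rise, so the 3 MMS arrays stood above all other arrays. The difference was -2.36 ± 0.18 (limma, adjusted p = 7.07e-13). The gene's other bright probe set gave -1.46 ± 0.12, so the direction held but the size is uncertain. At 320 µM MMS the change was 5.85, and at 80 µM it was 0.20. The gene's start region, chr1:161524290-161524539 (GRCh38.p14, plus strand, RefSeq), is shown with matches to the heat shock element core GAANNTTC in capitals.
HSPA6: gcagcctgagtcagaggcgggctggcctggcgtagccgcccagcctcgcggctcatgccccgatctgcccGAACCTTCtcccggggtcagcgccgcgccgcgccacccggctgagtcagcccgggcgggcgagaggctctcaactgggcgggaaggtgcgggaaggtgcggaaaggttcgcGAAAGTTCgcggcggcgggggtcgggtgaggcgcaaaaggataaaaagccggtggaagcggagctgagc
It holds 2 matches, and 4.15% of tested genes with a sequence hold any. The rest of the chaperone list did not follow HSPA6. Of 29 genes, 7 had a higher change with FA and 2 a lower one (1 lower without FA experiment 3 or without MMS experiment 1), and the median difference was 0.03. The shares over all genes tested were 11.0% and 14.3%. HSPA1L rose by 0.59 with FA and changed by 0.09 with MMS, which did not pass the test. The difference for HSPA1L was 0.51 in the probe set used and 0.17 in its other bright set. HSPE1, the mitochondrial co-chaperonin, fell by 0.21 and 0.67.

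Some NRF2 targets also had the lower change with FA. HMOX1, which breaks down haem, read 9.46, 9.50 and 9.49 before FA and 9.20, 9.09 and 9.17 after it, but 7.97, 8.28 and 8.24 before MMS and 9.21, 9.06 and 9.22 after it. The difference was -1.33 ± 0.15 (limma, adjusted p = 7.6e-09). The treated levels of the chemicals overlapped, and the untreated FA arrays lay above the MMS ones by 1.32. NQO1, a quinone reductase, went from 10.81, 10.90 and 10.82 to 10.57, 10.64 and 10.62 with FA and from 10.30, 10.47 and 10.29 to 11.34, 11.20 and 11.27 with MMS, and here the treated groups stood apart. GCLM, a subunit of the first enzyme of glutathione synthesis, fell by 0.23 with FA and rose by 0.24 with MMS. On the list of 29 NRF2 and thiol defence genes, 11 had a lower change with FA and 2 a higher one, but the median difference was -0.05. The shares over all genes tested were 14.3% lower and 11.0% higher. The lower count was 7 without MMS experiment 1, and 7 in a fit of only the arrays of the groups compared.

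Many of the genes with the largest downward differences were long. CHL1, an adhesion molecule gene of 213 kb on chromosome 3, read 8.23, 8.42 and 8.26 before FA and 5.39, 6.52 and 5.63 after it, while the MMS set read 8.38, 8.35 and 8.23 before and 8.51, 8.58 and 8.33 after. The fitted difference was -2.61 ± 0.21 (limma, adjusted p = 4.39e-12), and 2 of the 3 FA readings were dim, so the size of the fall is uncertain. FA experiment 2 fell least here, as it did in LRBA (7.11, 7.91 and 7.27 with FA, from 9.22, 9.26 and 9.33) and in VPS13B (5.75, 6.44 and 5.65, from 7.50, 7.58 and 7.66). LRBA, a vesicle traffic gene of 751 kb, differed by -1.98, VPS13B, a lipid transfer protein gene of 864 kb, by -1.92, and the ephrin receptor gene EPHB1, of 465 kb, by -2.06. PLCB1, a phospholipase gene of 753 kb, fell with both chemicals, by 2.30 and 0.48. CEP128 (483 kb) and MYO1D (385 kb) differed by -1.66 and -1.65. The probe sets of these genes did not all show differences of that size. Over the bright probe sets the difference ran from -2.06 to -0.11 for EPHB1 (3 sets), from -1.82 to -0.07 for PLCB1 (2 sets), from -1.66 to -0.15 for CEP128 (3 sets) and from -1.92 to -0.81 for VPS13B (2 sets). It was -1.98 and -1.96 in the 2 sets of LRBA, and CHL1, RAD51B, MYO1D and FTO had 1 bright set each. RAD51B, a gene of 863 kb on chromosome 14 whose product acts in homologous recombination, fell with FA from 6.75, 7.05 and 6.52 to 5.29, 5.47 and 5.27 and rose with MMS from 6.60, 7.01 and 6.86 to 7.59, 7.73 and 7.54. FTO, a demethylase gene of 418 kb whose reaction releases formaldehyde, fell 2.01-fold with FA and changed by 0.05 with MMS, which did not pass the test.

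The pattern went beyond single genes. Length is the span of the gene in RefSeq, known for 14001 of the tested genes. The 77 genes with a difference at least 2-fold lower had a median length of 213 kb, and 41 of them (53.2%) spanned at least 200 kb, a limit chosen after the values were seen, against 6.29% of all genes. The 91 genes at least 2-fold higher had a median length of 11.7 kb. The same lean was present in FA taken alone: of 113 genes at least 2-fold lower with FA (0.806%), 36.3% spanned at least 200 kb, against 11.1% of the 45 genes at least 2-fold lower with MMS (0.321%). With the genes put in order of length in 10 groups of equal size, the share with a lower difference ran from 7.21% in the shortest group to 26.2% in the longest, and the share with a higher one from 12.5% to 7%. The median difference ran from 0.05 in the shortest group to -0.10 in the longest, where its size was close to the median standard error of a single gene (0.11). Spearman's rho of length with the difference was -0.19 across genes, and with the FA and MMS changes -0.07 and 0.09. The untreated sets differed along length as well (rho -0.27 for the FA set minus the MMS set), and the part this plays in the trend over all genes was not tested. With the ACTB 3′ minus 5′ signal in the model, an alternative applied to the length trend after the values were seen, rho with the difference was -0.19 and rho between the untreated sets -0.20. Length did not order the weaker treatments this way. The median change in the longest group was 0.03 at 100 µM FA and 0.04 at 80 µM MMS. At 320 µM MMS, the top dose, it was -0.08, as it was at 200 µM FA. A median below 0 in the longest group was thus not particular to FA. In the shortest group the median change was -0.10 at 320 µM MMS and -0.02 at 200 µM FA.

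**Figure D3:**
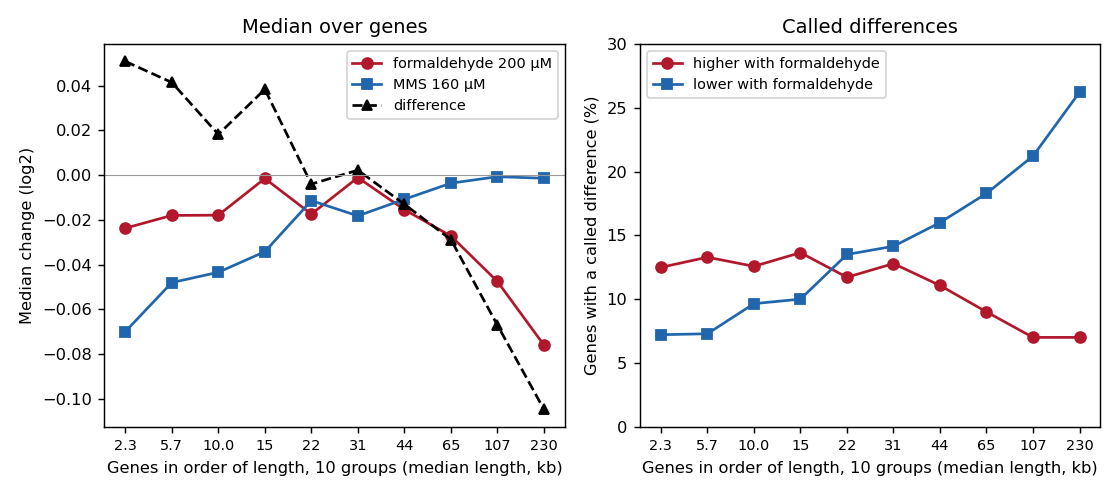
The tested genes in order of length, in 10 groups of 1400 or 1401 genes (horizontal, median length in kb): left, the median change with FA (red), with MMS (blue) and their difference (black), log2; right, the share of genes with a called difference. Lower differences become more common with length, from 7.21% to 26.2%, and higher ones less common.

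Proliferation genes mostly had the lower change with FA. Of 49 mitosis genes, 38 had a lower change with FA and 1 a higher one, against 14.3% and 11.0% of all genes tested. Their median difference was -0.39. With FA 8 rose and 26 fell (23.8% and 23.9% of all genes did), and with MMS 22 rose and 12 fell (25.7% and 21.6%). ASPM, a spindle pole protein, went from 10.72, 10.87 and 10.76 to 9.93, 10.16 and 9.90 with FA and from 11.17, 11.22 and 11.16 to 11.36, 11.44 and 11.27 with MMS, a difference of -0.95 ± 0.11 (limma, adjusted p = 6.66e-09). HMMR differed by -0.86, the mitotic kinase AURKA by -0.76 and the kinetochore motor CENPE by -0.76. CCNB1, the cyclin of mitotic entry, fell with both chemicals, by 1.06 and 0.40. Its FA arrays (10.75, 10.90 and 10.76) lay below the MMS arrays (11.52, 11.44 and 11.39), from like starting levels that differed by 0.01. The difference was present in shorter genes too: among the 21 members no longer than the median gene of 26.0 kb, 15 had a lower change and 1 a higher one, and among the 28 longer members 23 and 0. Array signals are averages over all cells, so fewer cells in a phase and less RNA per cell cannot be told apart.

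DNA replication genes showed the same split, with 30 of 43 lower and 0 higher, against 14.3% and 11.0% of all genes tested. Their median difference was -0.38. With FA 12 rose and 17 fell (23.8% and 23.9% of all genes did), whereas with MMS 31 rose and 4 fell (25.7% and 21.6%). The primase subunit PRIM2 differed by -0.77, the polymerase alpha subunit POLA2 by -0.72, and the helicase components CDC45 and GINS4 by -0.71 and -0.71. GINS4 rose with both chemicals, by 0.40 and 1.11, while CDC45 fell by 0.51 with FA and rose by 0.21 with MMS. The nucleotide supply genes TK1, thymidine kinase, and RRM2, a ribonucleotide reductase subunit, differed by -0.70 and -0.54. The untreated FA arrays had the higher level for 17 of the 43 replication genes and the lower one for 3.

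Repair genes differed by pathway. Members of the p53 list were left out of these counts. Over all genes tested, 11.0% had a higher change with FA and 14.3% a lower one. The Fanconi proteins unhook crosslinks and homologous recombination repairs the breaks that follow, and 18 of 27 of their genes had a lower change with FA and 0 a higher one, with a median change of -0.03 with FA and 0.28 with MMS. BRCA1 read 10.25, 10.29 and 10.24 before FA and 9.86, 9.94 and 9.82 after it, but 10.12, 10.15 and 10.02 before MMS and 10.81, 10.74 and 10.66 after it, with no overlap between any treated and untreated group. The difference was -1.03 ± 0.07 (limma, adjusted p = 1.98e-13). BRIP1, the helicase partner of BRCA1, rose with both, by 0.49 and 1.40, and FANCB, a core complex subunit, fell by 0.50 and rose by 0.34. Of the 18 longer genes of this list 14 were lower, and of the 9 shorter ones 4. Base excision repair, the main route for methylated bases, was mixed: 4 of 24 genes were higher and 8 lower. There, NEIL3 changed by 0.06 with FA, which did not pass the test, and rose by 0.76 with MMS, and MUTYH rose by 0.21 and 0.66. MGMT, which removes methyl groups from guanine, stayed between 5.74 and 6.32 on all 12 arrays and passed neither test. Of 5 mismatch repair genes measured here, 3 were lower, with EXO1 at 0.12 with FA (not past the test) and 0.83 with MMS. Nucleotide excision repair had 3 lower and 1 higher of 20 (1 lower without MMS experiment 1), where the lower count is near the share over all genes. Translesion synthesis had 3 lower and 1 higher of 11. Among 16 genes of formaldehyde formation and removal, 6 were lower and 0 higher, a count that was 3 lower with the mean of each gene's probe sets. Besides FTO these included the demethylase KDM4C (difference -0.56), the esterase ESD, which completes formaldehyde oxidation (-0.34), and SHMT2 of one-carbon metabolism (-0.30).

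**Figure D4:**
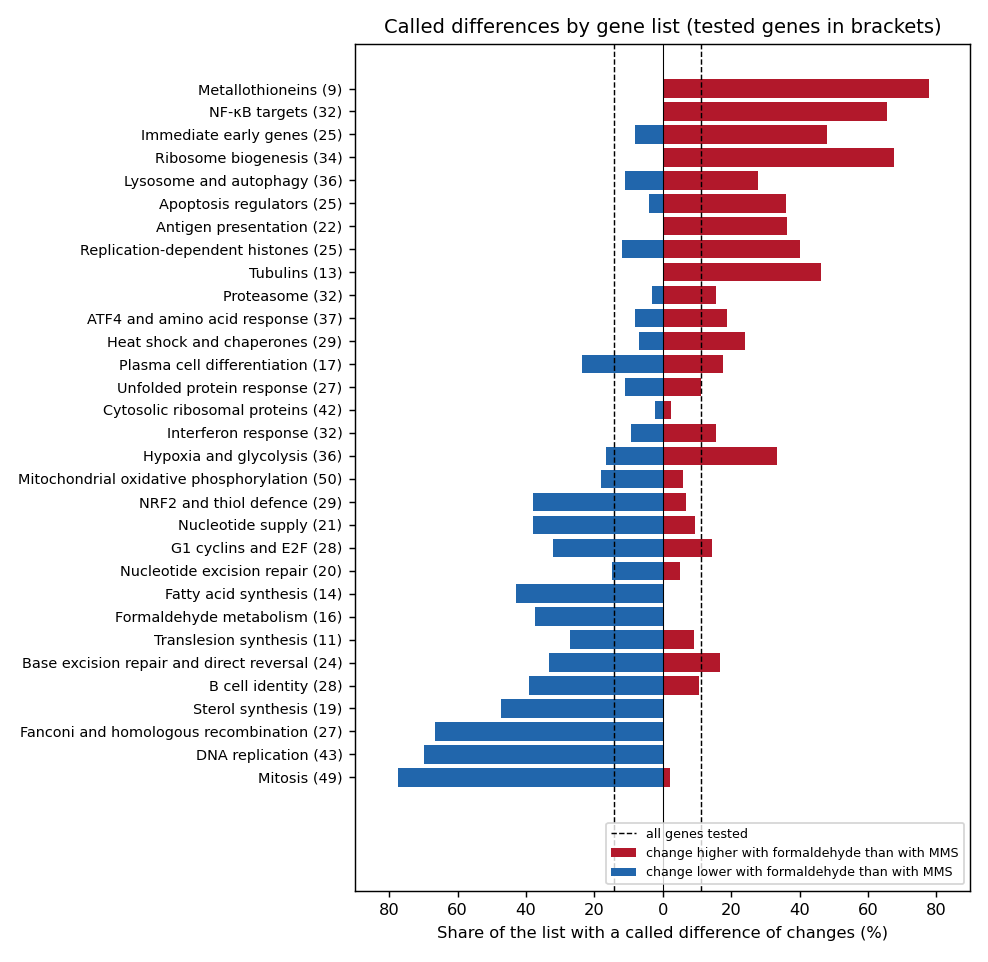
Share of each gene list with a called difference of changes, to the right where the change was higher with FA and to the left where it was lower; dashed lines mark the share over all tested genes (11.0% and 14.3%) and lists are ordered by median difference. Metallothioneins, NF-κB targets and ribosome biogenesis stand out on the right, and mitosis, DNA replication and Fanconi and recombination genes on the left.

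In ribosome biogenesis the chemicals differed in degree, not in direction. Of 34 genes, 27 fell with FA and 33 fell with MMS, and none rose with either. The fall was smaller with FA, at a median of -0.32 against -0.57, and 23 genes had a higher change with FA and 0 a lower one (15 in a fit of only the arrays of the groups compared). NOP16 fell by 0.64 and 1.16, MRTO4 by 0.51 and 1.01, and POLR1C, a subunit of RNA polymerases I and III, changed by 0.10 with FA, which did not pass the test, and fell by 0.54 with MMS. The difference for MRTO4 was 0.51 in the probe set used and 0.13 in its other bright set. Cytosolic ribosomal proteins were level: 1 of 42 higher and 1 lower. The shares over all genes tested were 11.0% higher and 14.3% lower.

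Lipid synthesis fell with both chemicals, more with FA. For the counts in this paragraph, 14.3% of all genes tested had a lower change with FA and 11.0% a higher one. Of 19 sterol genes, 15 fell with FA and 14 with MMS, at medians of -0.77 and -0.46. Of them 9 had a lower change with FA and 0 a higher one (5 lower without MMS experiment 1). The untreated FA arrays had the higher level for 9 of the 19 and the lower one for 1 (median offset 0.11). The part this played in the difference was not tested. DHCR7 fell by 1.18 and 0.71 and INSIG1 by 1.02 and 0.55, but SQLE, squalene epoxidase, fell alike, by 1.17 and 1.11 with a difference of -0.06 (95% interval -0.27 to 0.15). In fatty acid synthesis 6 of 14 were lower and 0 higher (3 lower with the mean of each gene's probe sets), with the carboxylase ACACA at -1.29 and -0.72 and ACLY at -0.86 and -0.42. The difference for ACACA was -0.56 in the probe set used and -0.03 in its other bright set. Glycolysis and hypoxia genes fell in both, 27 of 36 with each chemical, and split in the difference, with 12 higher and 6 lower (6 higher without FA experiment 3). HK2, hexokinase 2, went from 11.24 ± 0.10 (SD, n = 3) to 10.04 ± 0.05 with FA and from 11.19 ± 0.01 to 9.32 ± 0.09 with MMS. SLC2A1, the glucose transporter, fell by 0.23 and 0.93.

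B cell genes also parted. IGHM, the heavy chain of IgM, read 11.83, 11.75 and 11.60 before FA and 8.88, 8.82 and 8.76 after it, a 7.49-fold fall, and 10.93, 11.40 and 10.72 before MMS and 9.92, 10.09 and 9.70 after it, a 2.17-fold fall. The difference was -1.79 ± 0.22 (limma, adjusted p = 5.69e-08), and 1 of its 4 bright probe sets had the opposite sign, at 0.17. MZB1, a chaperone of antibody assembly, fell by 1.90 and 0.93. On the B cell identity list, 11 of 28 genes had a lower change with FA and 3 a higher one. The shares over all genes tested were 14.3% and 11.0%, so the higher count is near its share. MS4A1, which encodes CD20, fell by 0.35 with FA and rose by 0.67 with MMS, BTK fell by 1.16 and 0.27, and the costimulatory receptor CD40 rose by 0.65 with FA and fell by 0.13 with MMS. SLAMF7 and PRDM1, of the plasma cell list, had differences of 1.08 and 0.73, and the other bright probe sets of PRDM1 gave 0.19 and 0.36. That list held 3 higher and 4 lower of 17, against 11.0% and 14.3% of all genes tested. The interferon list started lower in the FA set for 25 of its 32 genes (median -0.73). Its difference had 5 higher and 3 lower (3 higher without FA experiment 3), against 11.0% and 14.3% of all genes tested. DDX60, a viral RNA sensor, was at -0.04 with FA (not past the test) and 1.24 with MMS.

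Among genes outside the lists, the highest differences after H2BC12 belonged to GPNMB, a lysosomal membrane glycoprotein, which went from 5.92, 6.12 and 6.09 to 8.75, 8.28 and 8.77 with FA and stayed between 5.65 and 6.25 in the MMS set. SLC2A5, the fructose transporter, rose by 2.50 and 0.42 (its 2 bright probe sets differed by 0.46 and 2.08), and CD200, an inhibitory surface ligand, by 1.79 with FA while its change of -0.08 with MMS did not pass the test. GALR2, a galanin receptor, and OTP, a homeobox gene, differed by 2.01 and 1.96. Of 13 tubulin genes, 6 were higher and 0 lower, led by TUBB2A, which rose by 0.85 with FA and fell by 0.47 with MMS. On the ATF4 list 25 of 37 genes rose with FA and 22 with MMS, against 23.8% and 25.7% of all genes tested. In the difference 7 were higher and 3 lower, against 11.0% and 14.3% of all genes tested. PPP1R15A was at 1.43 and 0.66 and TRIB3 at 0.53 and 1.18.

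Other changes were of like size with both chemicals. The chemicals moved 3130 genes (22.3%) the same way with a 95% interval of the difference inside ±0.5, and the genes given next were chosen among these, so their likeness is a description. SPARCL1, a matrix glycoprotein, rose by 2.85 and 2.86, and its difference of -0.01 had a 95% interval of -0.38 to 0.35. It was dim on the untreated arrays of both sets, so the sizes of both rises are uncertain. The stress factor DDIT3 rose by 2.35 and 2.54, the thiol-regulatory gene TXNIP by 1.32 and 1.26, and CCNG2 by 1.86 and 1.91. Downward, POLR3G, a polymerase III subunit, fell by 1.32 and 1.36 and LY86 by 1.31 and 1.22. The largest rises of all were shared but not equal: CYP4F3, a leukotriene hydroxylase, rose by 5.58 and 5.07 (difference 0.51 ± 0.16, limma, adjusted p = 0.0146, and not past the test without FA experiment 2, at 0.42, or MMS experiment 2, at 0.43), and the lysosomal fucosidase FUCA1 by 4.12 and 3.45 (0.67 ± 0.18, limma, adjusted p = 0.004). CYP4F3 and FUCA1 were also dim on the untreated arrays of both sets, so these sizes are uncertain.

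The other doses, set side by side without a test, show where each pattern appeared. The NF-κB median was 0.09, 0.21 and 0.58 at 50, 100 and 200 µM FA and -0.08, -0.11 and -0.08 at 80, 160 and 320 µM MMS. For metallothioneins it was 0.07, 0.14 and 0.28 with FA and -0.17, -0.32 and -0.46 with MMS. Fanconi and recombination genes ran at 0.01, -0.01 and -0.03 with FA and 0.08, 0.28 and 0.54 with MMS. The mitosis median was 0.02, 0.01 and -0.17 with FA and 0.11, 0.09 and -0.21 with MMS, so at the top MMS dose it lay near the FA value. Doses of one chemical share their untreated arrays.

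**Figure D5:**
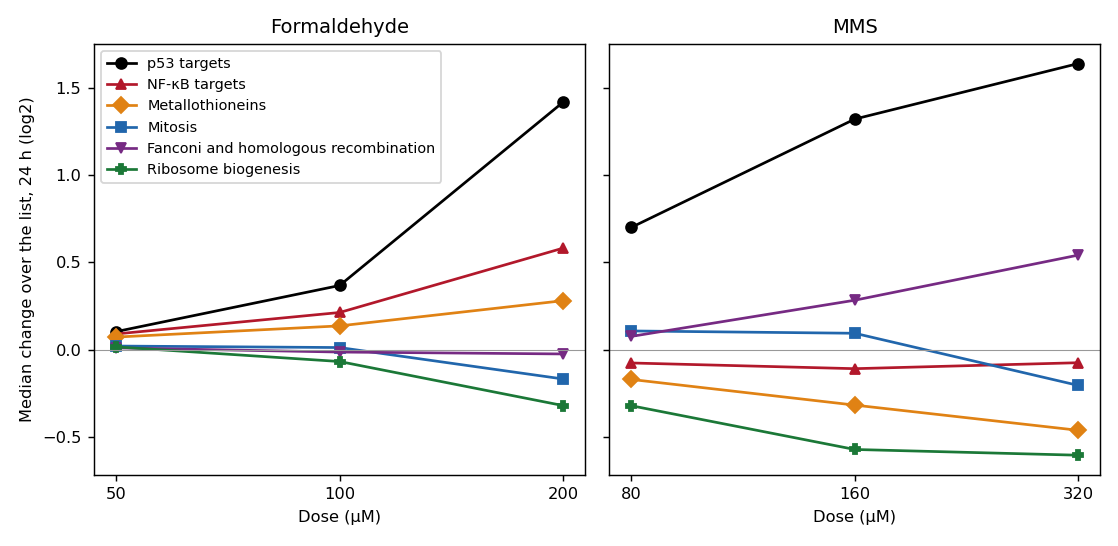
Median log2 change at 24 h over 6 gene lists by dose, FA at 50, 100 and 200 µM (left) and MMS at 80, 160 and 320 µM (right), each against the set's untreated arrays. NF-κB targets rise with FA dose and stay just below 0 with MMS, and the mitosis median falls below 0 at the top dose of each chemical.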

How the data were processed

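Biotin-labelled total RNA of TK6 cells was read on a human expression array with 54675 probe sets. The deposited log2 values came from the authors' RMA step, as the submitters' processing notes record. No version is given in the sources used here, nor which arrays went through that step together. RMA gives every array the same distribution, so a shift of all genes at once cannot be seen. Probe sets were named through the platform annotation given with the data: 41091 had 1 gene symbol and were used, 1801 had several and 11721 none. Where a gene had several, the brightest on average stood for it, giving 19775 genes. Tested were the 14017 genes that reached a log2 value of 6.186 on at least 3 of the 120 arrays of the series, a limit set where the average signal of the middle probe set lay.

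The difference of changes was fitted with limma 3.58.1 (R 4.3.3; lmFit, eBayes, two-sided) over the 48 arrays of the FA and MMS sets with 16 group means, and each chemical's own change over its 24 arrays. The p-values were Benjamini-Hochberg adjusted over all genes tested and called under 0.05. The fits were tested on simulated data. No 2 arrays held identical values. Alternatives were the experiment number as a block, no filter, the mean of a gene's probe sets, repeated quantile normalization, only the arrays compared, each experiment left out, and the ACTB or GAPDH 3′ minus 5′ signal as a covariate.

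The pair of doses, the gene lists and the rules were set with earlier results of these data known. Named by rule were the 12 largest called differences each way among genes whose 3 FA changes do not overlap the 3 MMS changes, the 8 largest each way with opposite called changes, the 8 largest shared changes each way with the 95% interval of the difference within ±0.5, up to 4 called differences of each list, and a panel of 16 genes. Members of the p53 list were left out of the counts of other lists. Correlations of same-numbered treated and untreated arrays (deviations from group means) were -0.01, 0.28 and 0.14 in the FA set and 0.20, 0.51 and 0.50 in the MMS set, so the numbers pair arrays in the MMS set alone by a limit of 0.1 for every pair. Gene lengths and start regions came from RefSeq on GRCh38.p14 and were matched by symbol, with 11160 tested genes having a start region.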

Additional observations from a re-analysis of the deposited data

Results flagged for a closer look

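For 16 genes the chemicals acted in opposite directions, each change and the difference passing the limma test, and these were the largest such cases by the smaller of both changes. The values are the change with FA minus the change with MMS, log2. Higher with FA were CXCL8 (2.06, and 0.65 in its other probe set), IL6 (2.02), CCL22 (1.81) and CCL2 (1.79) among the chemokines and cytokines. The others on that side were CD44, the hyaluronan receptor, at 1.33, the decoy receptor gene IL1R2 at 1.24, the keratinocyte envelope gene IVL at 1.51 and the germ line helicase gene TDRD9 at 1.39. The starting level was lower in the FA set by 0.98 for CD44 and 1.25 for TDRD9 and higher by 0.61 for IL1R2. All 3 arrays of at least 1 group were under 6.19 for CXCL8, TDRD9, RAD51B and RNASE6, so the sizes of their differences are uncertain.

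Lower with FA were RAD51B (-2.23), NAPSB (-1.63), SEL1L3 (-1.43), EML6 (-1.30, and -0.25 in its other bright probe set), PEX5L (-1.28), RNASE6 (-1.13), PARM1 (-1.09) and CAMK2D (-1.01). CAMK2D, a calmodulin-dependent kinase gene of 311 kb, fell by 0.51 with FA and rose by 0.51 with MMS. SEL1L3, a gene of 150 kb, fell by 0.51 and rose by 0.93. Among these genes EML6 and PEX5L span 248 and 242 kb, whereas RNASE6 spans 1.4 kb and NAPSB 11.0 kb.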

How the results depend on the processing

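The counts of calls stayed within 1.5 times under every alternative run. The 3558 called differences became 4103 with the experiment number as a replicate block, 3026 with the mean of probe sets, 3378 with no filter, 3973 with repeated quantile normalization, 2634 with only the arrays of the groups compared, and 3746 and 3760 with the ACTB and GAPDH covariates. With an experiment left out the count ran from 2671 to 3301. Of the named genes, 3 changed sign with the mean of probe sets: GUSB (0.0070), PSMD6 (-0.2001) and YWHAZ (-0.0447). Over all alternatives, 69 values of named genes lost their call, 1 gained one and 2198 kept direction and call, and 106 counts of list members moved by over 1.5 times while 856 did not. Of 101 named genes with more than 1 bright probe set, 22 had at least 1 set of opposite sign, among them NOP16, TAP2, IGHM, CCNG2 and TXNIP. For others the sets agreed in sign but not in size, as for CIITA (0.72 and 0.21) and TRIB3 (-0.65 and -0.22). In the MMS set every treated array correlated best with the untreated array of its own number, and in the FA set experiment 2 did but 1 and 3 did not. With 3 arrays a group, a difference under about 0.23 was mostly not detectable, and for genes near the limit of 6.19 a fold change can be understated.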

Other observations

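The 4 h arrays of the same doses give the earlier state, as values with no test of the difference. Among the untreated FA arrays at 4 h, the ACTB 3′ minus 5′ signal was 0.68 in experiment 3, against 0.35 and 0.30 in experiments 1 and 2. The part this plays in the 4 h FA changes was not tested. At 4 h JUN changed by 2.28 with 200 µM FA and by 0.20 with 160 µM MMS, ATF3 by 2.89 and 1.55, and HMOX1 by 0.59 and 1.61. CXCL8 and IL6, which were up at 24 h with FA, were not up then: they changed by -0.92 and -0.80 with FA, and by -0.48 and -0.61 with MMS. MYC changed by -1.39 and -0.47 and MDM2 by -0.96 and 0.30, so the p53 target MDM2 was below its control at 4 h with FA and changed by 1.97 at 24 h. The long gene CHL1 changed by -0.28 and -0.20 at 4 h, and HSPA6 by 0.55 and 0.67.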
